A study of Mus musculus with 34 samples.

Results

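Livers in which TGFα and c-Myc transgenes had been switched off for 12 weeks were compared with livers in which the same transgenes had been off for 4 weeks, with 3 arrays in each group, 6 of the 34 arrays of the series. The arrays were taken by their titles. The mice carried both transgenes and were on doxycycline, which turned the transgenes off, for 12 or for 4 weeks, so that all 6 livers share the transgenes and the drug. The labels call the arrays biological replicates. They give the strain of the reference (C57BL/6) but no strain, sex or age of the transgenic mice, no promoter that drove the transgenes, and no statement of how much of a liver had been tumor. Total RNA of each liver was labelled with Cy3 and hybridised to a 2-colour Agilent mouse array beside a Cy5-labelled pool of liver RNA from mice of both sexes. Every value is a log2 ratio of the liver over that pool, so a value of 0 means the same signal in both. The other arrays (control livers with no transgene and no doxycycline, tumors, and livers off TGFα or off c-Myc alone) served to estimate the spread and to set levels beside those of the 6 livers.

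TGFα binds the EGF receptor and drives the RAS and ERK kinase cascade in hepatocytes, and c-Myc is a transcription factor that promotes growth, ribosome production and proliferation. When such oncogenes are withdrawn, tumor cells can die or differentiate and the remaining liver takes up normal hepatocyte work, so a later and an earlier time after withdrawal ask how far expression still moves once the oncogenes are silent. Liver transcripts also depend on sex, which sets many cytochrome P450 and urinary protein genes through the pattern of growth hormone release, and on the hour of the day, through the circadian clock.

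Before the comparison, the arrays themselves differed. All 3 arrays of the 12-week livers lay on 1 slide scanned on 1 day, while replicates 1 and 2 at 4 weeks lay on another slide of another day and replicate 3 at 4 weeks on a slide and day of its own. No slide or scan day held both groups, so time off the transgenes and slide or scan day cannot be told apart in these 6 arrays. Between 45.9% and 47.5% of probes were well above background in the liver channel at 12 weeks, against 60.1% to 69.1% at 4 weeks. Over all genes, pairs of 12-week arrays correlated at 0.592, 0.543 and 0.598. Replicates 1 and 2 at 4 weeks correlated at 0.845, but replicate 3 at 4 weeks correlated with them at only 0.130 and 0.154, so counts and list medians are given with and without it. Hepatocyte markers (Alb, Ttr, Apoa1 and others) were well above background on all 6 arrays, with 7 of the 8 on the array, and their mean signal stood above 99.3% of probes or more. None of the 4 kidney and none of the 4 muscle markers was well above background on any 12-week array. On the 4-week arrays 1 to 2 kidney and 0 to 2 muscle markers were. Of 5 pancreas markers, 1 to 2 were well above background on the 12-week arrays and 2 to 5 on the 4-week arrays. Of 5 intestine markers, 2 were at 12 weeks and 3 at 4 weeks. No marker of bile duct, stellate, endothelial, Kupffer, neutrophil, B, T, erythroid, pancreas, intestine, fat, kidney or muscle cells passed the test at 12 against 4 weeks, with or without replicate 3. In bulk liver RNA, fewer cells of a type and less RNA per cell cannot be told apart.

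Sex-linked genes split the 6 arrays across the groups. Xist, the RNA of the inactive X chromosome, had log2 ratios of 0.76, -8.34 and -6.91 at 12 weeks, against 2.09, 1.89 and -10.38 at 4 weeks. The Y-linked gene Ddx3y, an RNA helicase, mirrored it, with -5.26, 0.81 and 1.21 at 12 weeks, against -8.37, -7.68 and 1.51 at 4 weeks, and Eif2s3y, Kdm5d and Uty followed the same split. Replicate 1 at 12 weeks and replicates 1 and 2 at 4 weeks were thus high in Xist and low in Y-linked genes, and the other 3 arrays the reverse. The submitters' array names carry a letter F or M, which the labels do not explain. On 5 of the 6 arrays F went with high Xist and M with high Y-linked genes, and on 1, replicate 3 at 4 weeks, the name carried F while Xist was low and the Y-linked genes were high. The letter also went against the sex-linked genes on 2 of the 12 other arrays of livers off their transgenes for 4 or 12 weeks. A direction drawn from the array labelled replicate 3 at 4 weeks rests on an array whose name and sex-linked genes disagree.

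The medians of genes known to differ between male and female mouse liver followed the same split and not the weeks off the transgenes. The female-biased list (27 of 29 genes tested) had array medians of 0.86, -3.01 and -3.70 at 12 weeks, against 0.47, 0.78 and -2.04 at 4 weeks. The male-biased list (25 of 28 tested) had -1.88, 0.20 and 0.22, against -1.74, -1.98 and 0.44. In both lists the arrays with high Xist sat together whichever group they belonged to. The median change at 12 against 4 weeks was -1.37 on the log2 scale over the female-biased and 0.44 over the male-biased genes, against 0.00 over all genes tested, and -2.53 and 1.27 without replicate 3 at 4 weeks, and no member of either list passed the test. Cyp3a41a, a cytochrome P450 of female mouse liver, had log2 ratios of -0.48, -4.70 and -4.35 at 12 weeks, against 0.07, 0.18 and 0.18 at 4 weeks. It was low on the 12-week arrays with high Y-linked genes alone, and its difference of -3.32 ± 1.41 (SE), adjusted p = 0.285, did not pass. Replicate 3 at 4 weeks kept a ratio of 0.18 for this gene and -0.73 for the related Cyp3a16, close to replicates 1 and 2, while it stood with the other Y-positive arrays for C6, a complement component higher in male liver, at 1.56.

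**Figure D1:**
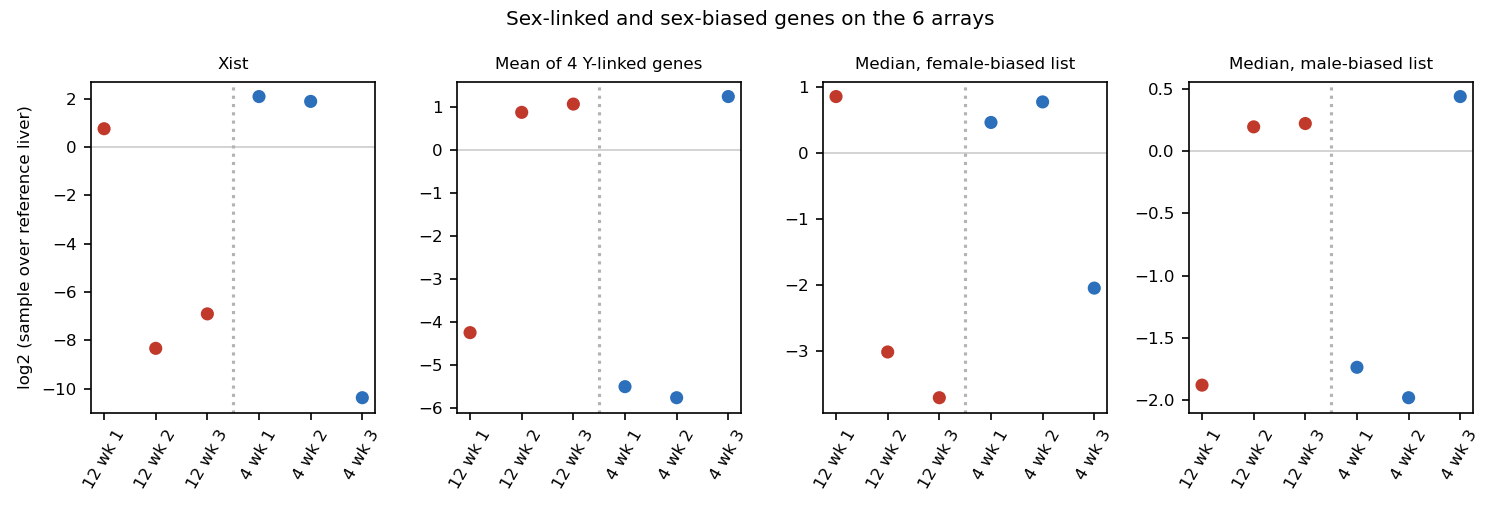
Log2 ratios of liver over reference pool on each of the 6 arrays for Xist and the mean of Ddx3y, Eif2s3y, Kdm5d and Uty, and the array medians of the female-biased and male-biased gene lists; red points are 12-week arrays and blue points 4-week arrays. Replicate 1 at 12 weeks sits with replicates 1 and 2 at 4 weeks in each panel, and replicate 3 at 4 weeks sits with replicates 2 and 3 at 12 weeks.

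With all arrays, 178 of 22263 genes differed between 12 and 4 weeks off TGFα and c-Myc at an adjusted p under 0.05 (limma, Benjamini-Hochberg over all genes), 0.8% of those tested. Of these 96 were higher at 12 weeks (0.431%) and 82 lower (0.368%). The stress-induced pseudokinase gene Trib3 led the rises, and the Hsp90 cochaperone gene Chordc1 and the small-peptidase-family gene Desi2 were among the falls. In 101 of the genes the liver channel was well above background on every array of both groups (70 higher, 31 lower), in 47 in 1 group only (2 higher, 45 lower) and in 30 in neither group. Without replicate 3 at 4 weeks, 293 genes passed, 1.32% of those tested, 157 higher and 136 lower, and 120 genes passed both times, 67.4% of the first set and 41.0% of the second. The split into higher and lower depended on how the ratios were made. With all arrays it was 55 higher and 86 lower with normexp background correction and loess on the mean signals, 60 and 124 from mean signals without background subtraction, 81 and 161 with the series matrix values and 4 and 17 in the liver channel alone. Without replicate 3 it was 176 and 269, 204 and 312, 65 and 258, and 23 and 160 in the same order. When the slide entered limma as a random block, 0 genes passed with all arrays (1861 at an unadjusted p under 0.05) and 5 without replicate 3. When only the 6 arrays entered, 0 passed with all of them (4479 at an unadjusted p under 0.05). Leaving out 1 array left 0 calls without replicate 2 at 4 weeks (2444 at an unadjusted p under 0.05 in limma), 1 without replicate 1 at 4 weeks, 29, 1 and 36 without replicates 1, 2 and 3 at 12 weeks, and 293 without replicate 3 at 4 weeks, so none of the 178 calls stood without replicate 2 at 4 weeks. From the 4-week arrays without replicate 3, leaving out replicate 2 as well gave 19 calls, of which 18 were among the 293.

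The 12 genes with the largest called rises, all well above background on all 6 arrays, gained between 1.56 and 2.49 on the log2 scale. Only genes whose groups do not overlap were ranked, so the separation of their arrays follows from the choice. Trib3, a pseudokinase induced through ATF4 by amino acid and endoplasmic reticulum stress that restrains Akt signalling, had log2 ratios of 0.35, 1.50 and 0.81 at 12 weeks, against -2.18, -1.26 and -1.36 at 4 weeks. Every 12-week liver stood above every 4-week liver, with control livers at -0.58 ± 0.57 (SD, n = 3) between them. The change was 2.49 ± 0.59 (SE), adjusted p = 0.0433, with limma across all genes, and 2.61 ± 0.67 (SE), adjusted p = 0.0484, without replicate 3 at 4 weeks. In the liver channel alone Trib3 differed by 2.87, and the reference channel moved by 0.40.

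Plekhf1, which encodes a phosphoinositide-binding protein of endosomes and lysosomes, had log2 ratios of 0.92, 0.66 and 0.85 at 12 weeks, against -0.92, -1.29 and -0.46 at 4 weeks. All 12-week livers were again above all 4-week livers, by 1.70 ± 0.35 (SE), adjusted p = 0.0253, and the reference channel moved by only 0.02. Fbxo32 (atrogin-1), the substrate receptor of a ubiquitin ligase best known from muscle wasting, had 0.94, 0.86 and 0.89 at 12 weeks, against -0.63, -1.28 and -1.50 at 4 weeks, with a change of 2.03 ± 0.42 (SE), adjusted p = 0.0257. Tesmin, named for a cysteine-rich testis protein, had 1.48, 2.35 and 2.42 at 12 weeks, against 0.16, 0.22 and 0.28 at 4 weeks, and changed by 1.86 ± 0.33 (SE), adjusted p = 0.0231. The 12-week livers were again all above the 4-week livers. Spata2l rose by 2.12 and the cationic amino acid transporter relative Slc7a4 by 1.93.

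Among the other large rises were Mtmr7, a myotubularin-related lipid phosphatase, at 1.64, B3galt4, a galactosyltransferase of ganglioside synthesis, at 1.62, and the non-coding RNA Particl, named here through an older symbol, at 1.69. For the remaining 3, most of the ratio change lay in the reference channel. Tmem87a, a Golgi membrane protein gene, rose by 2.21 in the ratio while its liver channel differed by 0.68 and the reference channel by -1.51. Plcb3, a phospholipase C, rose by 1.58 with -1.05 in the reference channel, and Otub1, a deubiquitinase, by 1.56 with -0.86. Of the 12, 7 also passed without replicate 3 at 4 weeks and 2, Trib3 and Plekhf1, passed when the ratios were rebuilt from the scanner's mean signals (normexp background correction and loess). With scan day as a fixed block, estimated through the other groups, the direction turned for Tmem87a (-1.91), Slc7a4 (-0.83) and B3galt4 (-0.016). That fit ties the day of replicates 1 and 2 at 4 weeks to the 12-week day only through a chain of other groups. The chain runs through single arrays, among them TGFα off 4 weeks replicate 1 and TGFα tumor replicate 1. Those arrays had mean correlations of only 0.024 and 0.013 with their own groups. In all 12 the mean of the control livers lay between the 12-week and the 4-week mean.

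The falls were ranked by the change of the ratio, and the 6 of the first 12 that were well above background on all 6 arrays lay between -1.89 and -1.30 on the log2 scale. Falls too were ranked only where the groups do not overlap. Desi2, of a family of deubiquitinating and deSUMOylating peptidases, had log2 ratios of -0.91, -1.42 and -1.10 at 12 weeks, against 1.05, 0.44 and 0.48 at 4 weeks. Every 12-week liver was below every 4-week liver, the change was -1.80 ± 0.35 (SE), adjusted p = 0.0231, and the control livers, at -1.13 ± 0.31 (SD, n = 3), stood at the 12-week level. Chordc1, a cochaperone of Hsp90 whose gene responds to heat shock, had -0.90, -0.94 and -0.34 at 12 weeks, against 0.46, 0.82 and 0.42 at 4 weeks, and changed by -1.30 ± 0.28 (SE), adjusted p = 0.027, with -0.69 in the liver channel and 0.62 in the reference channel. Polr3e, a subunit of RNA polymerase III, fell by 1.89 on the log2 scale, with control livers at -1.55 beside -1.37 at 12 and 0.52 at 4 weeks. Katnbl1, related to a subunit of the microtubule-severing enzyme katanin, fell by 1.40, Tmem184c by 1.47 and the nuclease-family gene Tatdn2 by 1.30.

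The other 6 of these falls were not well above background on any 12-week array, so that only a lower limit of the change in the liver channel can be given. Ikzf1, which encodes the lymphoid transcription factor Ikaros, had log2 ratios of -1.59, -1.69 and -1.70 at 12 weeks, against 1.44, 1.79 and 0.09 at 4 weeks, and was at least 1.21-fold lower at 12 weeks (adjusted p = 0.0374 in limma for the ratio). These limits set the 4-week mean of the normalised Cy3 signal against the dimmest signal well above background on the 12-week arrays, or the probe's own signal where that was higher. Snhg1, a host gene of small nucleolar RNAs, was at least 1.39-fold lower, Emilin3, an extracellular matrix glycoprotein gene, at least 1.36-fold, Hsf2bp, a meiotic recombination gene, at least 1.3-fold, Fsd1l at least 1.21-fold and the olfactory receptor gene Olfr868 at least 1.02-fold. Of the 12 falls, 7 also passed without replicate 3 at 4 weeks, and 4, Polr3e, Desi2, Katnbl1 and Chordc1, passed with normexp and loess, where Olfr868 had a change of 0.0182.

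Left without replicate 3, the 4-week group consisted of 2 arrays of 1 slide, and the largest rises were mostly of genes dim in the 12-week livers. Both of these 4-week arrays were high in Xist, while replicates 2 and 3 at 12 weeks were high in Y-linked genes. Sex and time are thus only partly separable in this fit. With a sex-linked gene score as a covariate, 161 genes passed, of which 131 were among the 293. Aldh1l2, a mitochondrial enzyme of folate metabolism, had log2 ratios of 0.29, 0.85 and 1.95 at 12 weeks, against -3.40, -3.68 and 0.42 at 4 weeks. Replicates 1 and 2 at 4 weeks stood alone at the low end and replicate 3 lay among the 12-week values. The liver channel of Aldh1l2 was not well above background on any 12-week array, and the reference channel was lower by 3.44 on the log2 scale at 12 weeks, so no fold is given. Scrt1, Grik3, Pvt1, Rasgef1a, Arhgef28 and Kcnmb2 were likewise not well above background on any 12-week array, with reference-channel differences of -3.96, -3.63, -3.29, -2.41, -2.20 and -1.79. In 9 of the 12 largest rises without replicate 3, most of the ratio change lay in the reference channel. The liver channel of these 7 genes (Aldh1l2 among them) differed by between -1.48 and 1.12, and was lower at 12 weeks for Grik3, Pvt1, Rasgef1a and Scrt1. With scan day as a fixed block, tied through the same chain of single arrays, the ratio turned for Aldh1l2 (-2.77), Scrt1 (-2.29), Grik3 (-0.65), Arhgef28 (-0.36) and Pvt1 (-0.0173).

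The 3 exceptions were Trib3, Stbd1 and Mrnip. Stbd1, a glycogen-binding protein that takes glycogen to lysosomes, had log2 ratios of -0.49, 0.32 and -0.04 at 12 weeks, against -2.48, -2.50 and 0.16 at 4 weeks. Replicates 1 and 2 at 4 weeks were lower than all 12-week livers, replicate 3 was not, and the change was 2.42 ± 0.41 (SE), adjusted p = 0.00314, without it and 1.54 ± 0.49 (SE), adjusted p = 0.134, with it. The liver channel carried 2.42 of that change without replicate 3 and the reference channel 0.01. Mrnip, which binds the MRN complex of DNA double-strand break repair, changed by 2.01 without replicate 3 (adjusted p = 0.0243 in limma) and by 1.27 with it (adjusted p = 0.218 in limma).

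**Figure D2:**
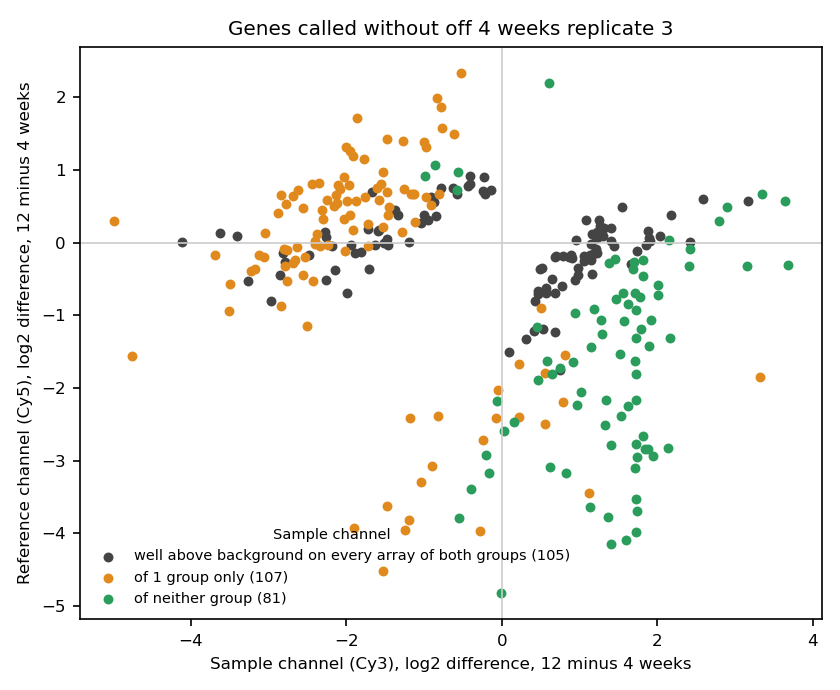
Difference at 12 minus 4 weeks in the liver channel (Cy3, horizontal, log2) and the reference channel (Cy5, vertical, log2) for the 293 genes called without replicate 3 at 4 weeks, coloured by where the liver channel was well above background. Genes well above background in both groups (105, dark grey) lie nearer to the horizontal line, while many of the 81 genes above background in neither group (green) lie far below it, towards a reference-channel difference of -4.

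Socs3, Bcl3 and Junb were lower at 12 weeks once replicate 3 at 4 weeks was left out. Replicates 1 and 2 at 4 weeks were both high in Xist, while replicates 2 and 3 at 12 weeks were high in Y-linked genes. Sex and time are thus only partly separable for the genes of this paragraph. Socs3, the feedback inhibitor of JAK and STAT3 signalling that interleukin-6 induces in hepatocytes, had log2 ratios of -0.82, -0.62 and -0.58 at 12 weeks, against 1.56, 1.43 and -1.13 at 4 weeks. Replicates 1 and 2 at 4 weeks were high, and replicate 3 was the lowest of the 6. The change was -2.16 ± 0.54 (SE), adjusted p = 0.0389, without replicate 3, and -1.29 ± 0.58 (SE), adjusted p = 0.318, with it. Bcl3, a partner of NF-κB p50 and p52 chosen after its values were seen, had -0.27, 0.34 and 0.03 at 12 weeks, against 1.70, 1.82 and -0.28 at 4 weeks, and an adjusted p of 0.00612 without replicate 3 against 0.198 with it (limma). Junb, an AP-1 subunit, had -1.08, -0.55 and -0.95 at 12 weeks, against 0.55, 0.76 and -0.74 at 4 weeks, with adjusted p-values of 0.0409 and 0.187 in the same fits. For all 3 genes the array labelled replicate 3 at 4 weeks lay nearer the 12-week livers than its own group. Prox1, a transcription factor of hepatocytes, and Ugcg, which makes glucosylceramide, both chosen after their values were seen, fell without replicate 3 as well, by 1.51 and 1.73 on the log2 scale (adjusted p = 0.03 and 0.0383 in limma), but not with it.

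Other falls without replicate 3 that were well above background on all 6 arrays were Snhg8, a small nucleolar RNA host gene named here through an older symbol, by 2.29 on the log2 scale, the splicing factor Gpkow by 1.76 and Rbbp8, which starts DNA end resection, by 1.74. Ccdc85a and the orphan receptor gene Gpr135 were not well above background on any 12-week array and were at least 1.16-fold and 1.14-fold lower. For Hrnr no fold is given, since its 4-week signal did not exceed the background limit of the 12-week arrays.

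**Figure D3:**
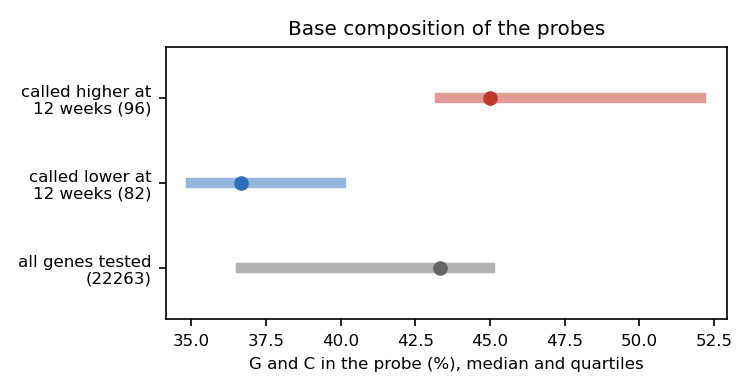
Share of G and C bases in the probes (horizontal, percent) of genes called higher and lower at 12 weeks with all arrays and of all genes tested; points are medians and bars span the quartiles. The medians are 45.0%, 36.7% and 43.3%.

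The called genes also differed in the base composition of their probes. Genes called higher at 12 weeks had probes with a median of 45.0% G and C, genes called lower 36.7%, and all genes tested 43.3%. Among genes well above background on all 6 arrays, the median change was 0.03 for probes below 35% G and C (321 genes) and -0.11 for 35 to 40%. It was 0.12 for 45 to 50% and 0.31 for 55% or more. Of the genes called lower, 55 of 82 carried only a clone, tag or accession name of the array, against 13 of 96 called higher and 4815 of 22263 tested. The part of base composition in the calls was not tested.

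The median change over all genes tested was 0 on the log2 scale. Of the 35 gene lists of liver function, signalling and cell growth, 29 had no member called with or without replicate 3 at 4 weeks. With all arrays, 3 of 906 list members passed (0.331%, against 0.8% of all genes), Trib3, Per1 and Chordc1, and without replicate 3, 5 passed (0.552%, against 1.32%), Trib3, Chordc1, Socs3, Junb and Erbb4. The share of list members called was thus below that of all genes in both fits. Erbb4, a receptor of the EGF receptor family, was not well above background on any 12-week array, and its ratios were exactly 0 there because the scanner software had replaced both channels by substitutes. The proximal promoters of 3 of these genes are shown for the response elements these genes are known for, read from RefSeq (GRCm38.p6) with matches to the searched motif in capitals. The heat shock element was searched as GAANNTTC, the STAT element as TTCNNNGAA and the E-box of clock factors as CACGTG, each on both strands.
Chordc1: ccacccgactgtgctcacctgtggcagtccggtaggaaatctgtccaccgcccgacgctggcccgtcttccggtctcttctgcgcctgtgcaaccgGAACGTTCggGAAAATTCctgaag
Socs3: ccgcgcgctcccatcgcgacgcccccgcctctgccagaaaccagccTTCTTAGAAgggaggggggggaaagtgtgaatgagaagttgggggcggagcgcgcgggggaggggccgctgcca
Per1: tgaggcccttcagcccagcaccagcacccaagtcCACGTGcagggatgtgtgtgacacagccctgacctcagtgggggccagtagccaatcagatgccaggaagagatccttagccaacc
The Chordc1 stretch lies at chr9:18292167-18292286 on the plus strand and holds 2 matches around the start of the gene. The Socs3 stretch lies at chr11:117969447-117969566 on the minus strand with 1 match 154 bases before the start, and the Per1 stretch at chr11:69098749-69098868 on the plus strand with 1 match 166 bases before the start of 1 of the 2 Per1 promoters listed. Among the 32851 promoter entries of RefSeq, 7.86% hold the first motif, 8.3% the second and 7.15% the third, so a match is common, and these arrays measured no binding.

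List members named in this and the following paragraphs were mostly those with the smallest p of their list. A separation of their groups thus follows in part from that choice, and the share of all genes whose groups do not overlap is not given here. Of 21 clock genes tested, 1 rose, none fell with an adjusted p under 0.05, and the list median was 0.24 (0.14 without replicate 3). Per1, a repressor of the clock whose promoter E-box is shown above and that also answers glucocorticoids and feeding, had log2 ratios of 1.38, 0.75 and 1.00 at 12 weeks, against -0.02, -0.36 and -0.43 at 4 weeks. All 12-week livers were above all 4-week livers, by 1.31 ± 0.29 (SE), adjusted p = 0.0328, and by 1.23 ± 0.33 (SE), adjusted p = 0.057, without replicate 3, which did not pass. The control livers stood lower still, at -1.37 ± 0.43 (SD, n = 3). Cry2, another repressor of the clock, had 0.98, 0.70 and 0.34 at 12 weeks, against -0.07, -0.11 and -0.98 at 4 weeks, and Per3 2.20, 1.89 and 1.15 at 12 weeks, against -0.15, 0.61 and -1.96 at 4 weeks, both without overlap and neither past the test (adjusted p = 0.198 and 0.189 in limma). Nfil3, a clock-controlled repressor, had -1.32, -1.0 and -1.14 at 12 weeks, against 1.14, 0.38 and -0.78 at 4 weeks, in the opposite direction, with an adjusted p of 0.164 in limma (0.0507 without replicate 3 and 0.0216 there with normexp and loess). The labels give no hour of collection.

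Of 18 heat shock genes tested, 1 (Chordc1) fell and the list median was -0.40, with 13 of 18 members lower at 12 weeks (-0.33 and 12 members without replicate 3). In the liver channel alone the list median was 0.06, and in the reference channel 0.21, against 0.07 and 0.0965 over all genes tested. Dnaja1, an Hsp40 cochaperone, had log2 ratios of -0.94, -1.11 and -1.0 at 12 weeks, against -0.28, -0.09 and 0.09 at 4 weeks. Dnajb1, of the same family, had -0.50, -0.31 and -0.24 at 12 weeks, against 0.63, 0.59 and 0.33 at 4 weeks, and Bag3, a cochaperone of Hsp70, 0.02, -0.31 and -0.07 at 12 weeks, against 0.78, 0.84 and 0.47 at 4 weeks. In these 3 genes the groups did not overlap, and none passed the test (adjusted p = 0.112, 0.153 and 0.146 in limma). They were named for their small p, so this separation follows in part from the choice. The endoplasmic reticulum chaperone list had a median of -0.25, 25 of 30 members lower and none called, and without replicate 3 a median of -0.17 and 20 members lower. Its median difference was 0.00233 in the liver channel and 0.31 in the reference channel.

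Of 29 acute phase genes tested, none passed with all arrays and 1 (Socs3) fell without replicate 3 at 4 weeks, with list medians of -0.36 and -0.66. Saa3, a serum amyloid A induced by inflammation, had log2 ratios of 0.45, 1.22 and -0.10 at 12 weeks, against 2.87, 2.34 and 2.70 at 4 weeks. Its 4-week livers, replicate 3 included, were all above its 12-week livers and above the controls at -0.01 ± 1.25 (SD, n = 3), and the difference of -2.11 ± 0.71 (SE), adjusted p = 0.156, did not pass. Saa1, a related serum amyloid A of the liver, differed by -1.33, likewise short of the threshold (adjusted p = 0.409 in limma). Mt2, a metallothionein, had 3.13, 1.34 and 2.80 at 12 weeks, against 1.90, 1.89 and -2.71 at 4 weeks, so that replicate 3 at 4 weeks alone was low.

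Of 27 ATF4 target genes tested, Trib3 rose and no other passed. Ddit4, an inhibitor of mTORC1 from the same list, differed by 1.15 (adjusted p = 0.358 in limma), and the list median was 0.20 (0.22 without replicate 3). The ATF4 composite element TTGCATCA was not found in the Trib3 promoter entry (0.895% of entries hold it). For immediate early genes the median was -0.05 with all arrays and -0.35 without replicate 3, where Junb alone fell among 28 tested.

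In the ERK feedback, ribosome biogenesis, cell cycle, oncofetal and extracellular matrix lists, no member passed. The ERK feedback genes had a median of -0.21 over 13 tested (-0.28 without replicate 3), with Dusp6, a phosphatase of ERK, at -0.10, -0.06 and -0.62 at 12 weeks, against 0.69, 0.98 and -0.33 at 4 weeks. Ribosome biogenesis genes, among the best known Myc targets, had a median of -0.26 over 30 (-0.13 without replicate 3). For cell cycle and mitosis genes the sign turned with that array, from 9 members higher and 22 lower of 31 with it (median -0.15) to 24 higher and 5 lower without it (median 0.19). Oncofetal genes turned likewise, with medians of 0.05 over 24 and -0.07 without replicate 3. Only 10 of the cell cycle genes were well above background on all 6 arrays. Dlk1, an oncofetal surface protein, had 3.17, 3.25 and 3.86 at 12 weeks, against 1.00, 1.45 and 0.00 at 4 weeks, without overlap and without passing (adjusted p = 0.167 in limma). Extracellular matrix genes of stellate cells had a median of 0.18 with 25 of 35 higher at 12 weeks and none called, and 0.37 with 23 higher without replicate 3.

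No member passed in the metabolic lists. The median change is given with the value without replicate 3 at 4 weeks in parentheses. Hepatocyte plasma proteins had -0.03 (-0.02), bile acid genes 0.01 (-0.03), urea cycle and amino acid catabolism genes 0.11 (0.11), respiratory chain subunits -0.08 (-0.11) and cytosolic ribosomal proteins -0.12 (-0.09). Cholesterol synthesis genes had 0.20 (0.13), fatty acid synthesis genes 0.36 (0.14) and fatty acid oxidation genes -0.25 (-0.20). The sign of the bile acid median turned, and of 23 fatty acid synthesis genes 16 were higher with replicate 3 and 13 without it. Gpam, the first enzyme of glycerolipid synthesis, had -0.58, -0.20 and -0.55 at 12 weeks, against -2.59, -2.49 and -0.36 at 4 weeks, so that replicates 1 and 2 at 4 weeks were low and replicate 3 was not. Its change of 2.10 without replicate 3 had an adjusted p of 0.106, and of 0.0171 with normexp and loess (limma).

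Immune lists had no member called either. Interferon response genes had a median of -0.33, with 22 of 34 lower at 12 weeks, -0.25 without replicate 3 and only -0.096 with normexp and loess. Cxcl10, a chemokine that interferon induces and that draws T cells, had log2 ratios of -2.03, -1.07 and -3.67 at 12 weeks, against 0.58, 0.46 and -0.02 at 4 weeks. The groups did not overlap, the control livers stood at -1.32 ± 1.08 (SD, n = 3), and the difference was -2.60 ± 0.67 (SE), adjusted p = 0.0594, just short of the threshold in limma. Chemokine and leukocyte recruitment genes had a median of -0.27 over 21, -0.34 without replicate 3 and -0.013 with normexp and loess. Ccl2, which attracts monocytes, had -0.74, -0.46 and -2.15 at 12 weeks, against 0.33, 0.51 and 0.55 at 4 weeks, again without overlap and without passing (adjusted p = 0.397 in limma). In the EGF receptor family and its ligands, Ereg (epiregulin, a ligand of the receptor) had 0.00, -1.66 and 0.00 at 12 weeks, against 1.55, 0.54 and 1.31 at 4 weeks, with an adjusted p of 0.0512 in limma, and was not well above background throughout either group.

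Among drug and steroid metabolism genes the median was -0.22, with 23 of 33 lower at 12 weeks and none called. Without replicate 3 it was -0.33 with 20 lower, and -0.07 there with normexp and loess. In the liver channel alone the median with all arrays was 0.03, and in the reference channel 0.32. Nr1i2, which encodes the xenobiotic receptor PXR, had log2 ratios of -0.47, -1.45 and -0.70 at 12 weeks, against 0.57, 0.31 and -0.09 at 4 weeks, and Cyp3a11, a cytochrome P450 that PXR induces, -1.93, -3.74 and -3.76 at 12 weeks, against -1.30, -0.82 and 0.19 at 4 weeks. Both had all 12-week livers below all 4-week livers, and neither passed (adjusted p = 0.128 and 0.22 in limma). In the urea cycle and amino acid list, Slc25a15, the mitochondrial ornithine carrier, had -0.80, -0.74 and -0.86 at 12 weeks, against 0.32, 0.19 and -0.01 at 4 weeks. Its groups did not overlap, the difference was -0.96 ± 0.28 (SE), adjusted p = 0.0902, in limma, which did not pass, and with normexp and loess and without replicate 3 the adjusted p was 0.0313.

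Myc and Tgfa were read at every probe. At 1 Myc probe that was high in the TGFα/Myc tumors (5.04, 5.65 and 3.36), the log2 ratios were 1.01, -0.21 and -0.01 at 12 weeks, against 1.68, 1.37 and 0.71 at 4 weeks, with control livers at 0.08, 0.25 and -1.36. At another such probe, which was well above background on 1 of the 3 12-week arrays and on all 3 4-week arrays, with tumors at 3.52, 4.04 and 1.71, they were 0.11, -0.83 and -1.08, against 0.39, -0.08 and -0.02. The third, which was not raised in those tumors (0.11, 0.57 and 0.74), gave 0.72, -0.51 and -0.06, against 2.06, 1.36 and 0.56. All 3 had lower mean ratios at 12 weeks, and none passed (adjusted p of 0.732, 0.771 and 0.238 in limma over all probes). The differences were -0.99 at the first and -1.28 at the third, and -1.26 and -1.66 without replicate 3, again without passing (adjusted p of 0.7 and 0.14 in limma). The 2 Tgfa probes differed by 0.35 and -0.18 (adjusted p of 0.85 and 0.964 in limma), and by 0.31 and 0.32 without replicate 3, where the sign of the second turned. The labels do not say whether these probes see the transgenes, and the TGFα/Myc tumors had log2 ratios of -0.07, -0.91 and 1.51 at the first Tgfa probe and -2.41, -1.69 and -0.76 at the other.

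Livers off c-Myc alone or off TGFα alone were taken at the same times, which allowed the changes to be set side by side. The difference between the change off TGFα/Myc and that off Myc passed for 5 genes (0.0225% of those tested) and the difference from that off TGFα for 13 (0.0584%), all 13 lower. Without replicate 3 of TGFα/Myc off 4 weeks the counts were 58 (0.261%) and 125 (0.562%). Livers off TGFα offer the closer comparison, because replicates 2 and 3 of their 4-week group lay on the slide of replicates 1 and 2 of the TGFα/Myc 4-week group, and all 3 of their 12-week arrays were scanned on the day of the TGFα/Myc 12-week arrays. Those 12-week arrays lay on another slide than the TGFα/Myc 12-week arrays, however, so genotype and slide cannot be told apart at 12 weeks. Over the arrays of the same scan days, a set chosen after seeing the data, 14 genes passed (0.0629%), all lower. That fit left out replicate 3 of TGFα/Myc off 4 weeks and replicate 1 of TGFα off 4 weeks. It also left out replicates 2 and 3 of the TGFα tumors, on the slide of the latter, and took the spread from all remaining arrays. The compared arrays off TGFα hold the same mix of sex-linked genes, with Xist high on 1 of 3 arrays at 12 weeks and on both at 4 weeks. Each of the 14 genes had a change below 0 off TGFα/Myc and above 0 off TGFα. Slc16a6, a monocarboxylate transporter that exports ketone bodies from hepatocytes in zebrafish and the 1 gene of the 14 with a proper symbol, changed by -1.87 off TGFα/Myc and by 1.07 off TGFα, a difference of -2.94 ± 0.52 (SE, adjusted p = 0.0348 in limma). Its log2 ratios off TGFα/Myc were 0.24, -1.13 and -0.30 at 12 weeks, against 1.54, 1.42 and 0.00 at 4 weeks. With replicate 3 and all arrays the difference was -2.74 (adjusted p = 0.108 in limma), which did not pass.

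The ratio changes of the named genes were set beside those off TGFα on the same scan days. The arrays of both genotypes share scan days here, though not the slide at 12 weeks. Off TGFα, 350 of 22263 genes passed in the fit of the same scan days (1.57%). Aldh1l2 and Scrt1 were not well above background on any 12-week TGFα/Myc array, and their reference channel was lower by 3.44 and 3.96 on the log2 scale at 12 weeks. Their ratio changes were 4.57 and 3.68 off TGFα/Myc without replicate 3, beside 4.51 and 3.64 off TGFα, and no fold is given. Of the 12 largest rises without replicate 3, 9 also passed upwards in the ratio off TGFα, and these are the 9 in which most of the ratio change lay in the reference channel. Trib3, Stbd1 and Mrnip did not, with 2.61, 2.42 and 2.01 off TGFα/Myc, against 0.56, -0.02 and 0.17 off TGFα. The differences of these changes did not pass (adjusted p = 0.551, 0.0839 and 0.328 in limma). Of the falls without replicate 3, none of 12 passed off TGFα. Socs3 changed by -2.16 off TGFα/Myc and 0.11 off TGFα, and Desi2 by -1.89 and 0.05. Those differences did not pass either (adjusted p = 0.302 and 0.133 in limma).

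**Figure D4:**
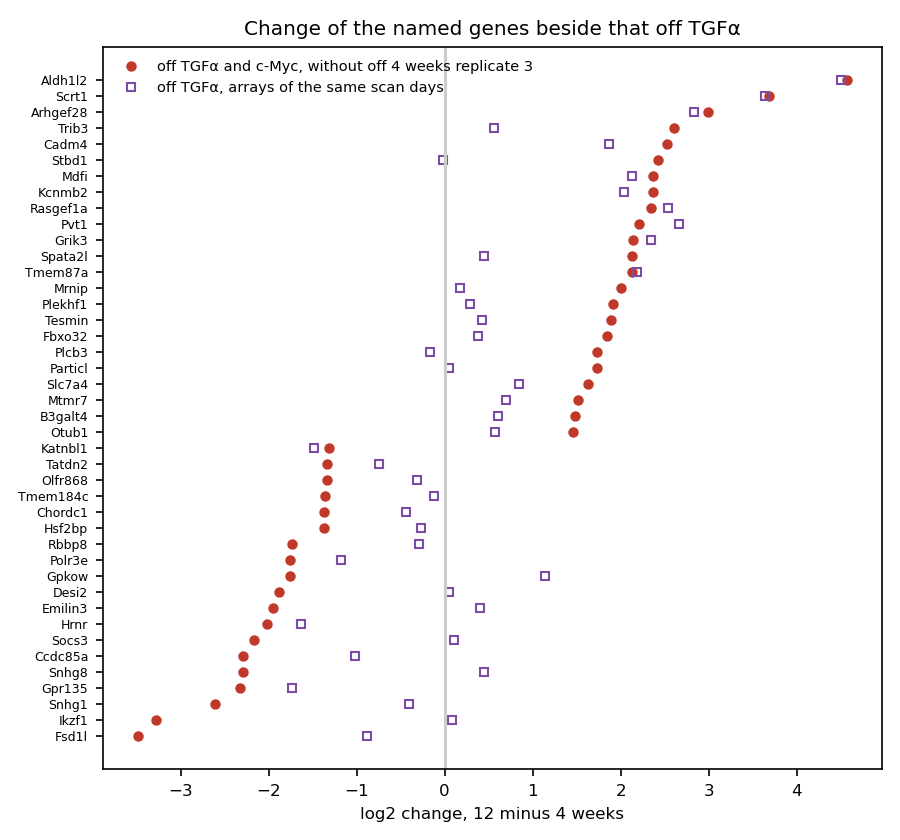
Log2 change at 12 minus 4 weeks of each named gene off TGFα and c-Myc without replicate 3 at 4 weeks (red circles) and off TGFα alone on arrays of the same scan days (purple squares). Aldh1l2, Scrt1 and Arhgef28, whose reference channel was lower at 12 weeks, have both symbols side by side, whereas those of Trib3, Stbd1, Socs3 and Desi2 lie apart, differences that did not pass the test.

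Beside livers off c-Myc alone, 1 gene well above background with a proper symbol differed in its change. Akap17b, of the family of kinase A anchoring proteins, had log2 ratios of -1.16, -0.83 and -0.84 at 12 weeks, against 0.13, 0.72 and -0.12 at 4 weeks off TGFα/Myc. It changed by -1.19 off TGFα/Myc (adjusted p = 0.0253 in limma) and by 0.80 off c-Myc, a difference of -1.99 ± 0.35 (SE, adjusted p = 0.0306 in limma). None of the 5 genes, Akap17b among them, passed with normexp and loess or with scan day as a fixed block. The other above-background gene of the 5 had no proper symbol. Of the remaining 3, Rasgef1a and Robo2 were not well above background throughout either TGFα/Myc group and have no fold. The 4-week arrays off c-Myc were all scanned on 1 day that held none of the 6 arrays.

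Called genes that were well above background on all arrays compared were also set against the 3 control livers, which are themselves mixed in sex-linked genes (Xist high on 1 of 3). With all arrays, the control mean was nearer the 12-week mean in 47 of 70 rises and 20 of 31 falls. Without replicate 3 at 4 weeks it was nearer the 12-week mean in 47 of 59 rises and 40 of 46 falls. Of the 70 rises, 1 differed from controls at 12 weeks and 16 at 4 weeks, and of the 31 falls, 1 and 12 (adjusted p under 0.05, limma), beside 0.0494% and 1.33% of all genes. Without replicate 3 the counts were 0 and 18 of 59 rises and 0 and 15 of 46 falls, beside 0.0449% and 1.28% of all genes. The genes were called on the same 12-week and 4-week arrays, so their shares differing from controls are not independent of the calls. How often the control mean lay nearer the 12-week mean over all genes was not counted. No control array was scanned on a day of the 6 arrays, so scan day and time cannot be told apart here either.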

How the data were processed

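Per the file headers, each array was read with Agilent Feature Extraction 9.1.3.1, and the deposited files hold, per spot, intensity values of both channels and a log10 ratio of red (Cy5) over green (Cy3) made from background-subtracted, detrended and dye-normalized signals. Per the labels, the liver RNA was in Cy3 and the pooled reference in Cy5, with no dye swap, so a dye effect of a probe stays in its ratio. Other per-spot columns, the above-background, saturation and outlier marks of the deposited files, are other values that were used as given. The authors' deposited series matrix holds log2 values made with limma, per the submitters' processing notes, and was used as an alternative with its sign turned. Its background, dye and centring steps are not stated in the labels or headers.

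The deposited log10 ratio was turned to log2 of liver over reference. Probes well above background in the liver channel on at least 3 of the 34 arrays were kept (32773 of 41174), outlier spots were left out, and the brightest kept probe stood for a gene (22263 genes, of which 7364 had more than 1 kept probe). Of all 41174 probes, 24844 were named through their accession in RefSeq, 6045 through the array's symbol and 1810 through an older symbol, and 8475 kept the array's name. Where both channels of a spot lay at background, the scanner software had written a ratio of exactly 0. Limma 3.58.1 (R 4.3.3) was fitted with 1 coefficient per group over all 34 arrays, whose spread is thus assumed equal between groups, with eBayes and Benjamini-Hochberg adjustment over all genes, and a gene was called at an adjusted p under 0.05. The number of arrays (3 a group) limits the precision. At-least folds came from the Cy3 signal after normexp (offset 50), loess and Aquantile normalization, and without dye swaps they are open to dye bias. The script was tested on simulated data. There, 12% of genes changed by 1 and 56% of those changed by 2 on the log2 scale were called with all arrays. Without replicate 3 at 4 weeks it was 6% and 54%, so a gene or list without a call can still have changed.

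The comparisons, members and gene lists were chosen with earlier results of these data known. Named genes were the 12 largest called rises and falls with a proper symbol and groups that do not overlap, with all arrays and again without replicate 3 at 4 weeks, up to 4 members of a list with the smallest p, and the Myc, Tgfa and sex-linked genes. Genes not well above background in either group have no fold and were left out of that ranking. For the differences between changes, genes with a proper symbol among the calls were named. Alternatives changed the background correction, scaling, filter, probe rule, variance model, arrays and blocks. Replicate numbers were checked for pairing: the deviations of same-numbered arrays from their group means correlated at 0.143, -0.141 and 0.0284, so the numbers were not taken as pairs.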

Additional observations from a re-analysis of the deposited data

Results flagged for a closer look

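The change at 12 against 4 weeks off TGFα/Myc differed from the change off c-Myc alone for 5 genes and from the change off TGFα alone for 13 genes, by a test of the difference itself in limma (adjusted p under 0.05). Over the arrays of the same scan days, the difference from the change off TGFα passed for 14 genes. Of the genes with a proper symbol that were well above background on all TGFα/Myc arrays compared, 1 in the first and 1 in the last of these tests met it.

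Akap17b differed in its change by -1.99 on the log2 scale between livers off TGFα/Myc and livers off c-Myc. That difference did not pass with normexp and loess or with scan day as a fixed block. Slc16a6 differed by -2.94 between livers off TGFα/Myc and livers off TGFα on arrays of the same scan days. Groups of 3 arrays were too small to test single arrays as outliers.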

How the results depend on the processing

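The 12-week and 4-week arrays share no slide and no scan day, so no value within a slide or day holding both groups could be given. Each array carries 1 of few livers, dim spots have ratios of exactly 0 or only a limit, and the fit borrows its spread from 28 other arrays. The cause of the changes below was not tested, beyond fewer arrays or genes entering where the setting says so. Settings that set exact zeros to missing, compared arrays of the same scan days, or left replicate 3 at 4 weeks out of the differences between changes were chosen after seeing the data.

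For the 178 genes called with all arrays, the count was 21 in the liver channel alone, 1857 with scale normalization, 360 with no filter on dim probes, 3852 with array weights, 0 with only the 6 arrays, 278 without the slide with another reference profile, 0 with slide as a random block and 48 with scan day as a fixed block. Leaving out 1 array gave between 0 and 293. A like count did not mean the same genes. Of the 178, 71 also passed with normexp and loess, 82 from mean signals and 115 with the series matrix. In the liver channel alone 6 of the 178 passed, and with scan day as a fixed block 1. For the 293 called without replicate 3 at 4 weeks, it was 445 with normexp and loess, 516 from mean signals with loess, 183 in the liver channel alone, 1295 with scale normalization, 772 with no filter, 167 with a filter on all arrays of 1 group, 122 with a filter on all 34 arrays, 3982 with array weights, 674 with only the arrays compared, 5 with slide as a random block, 48 with scan day blocked, 161 with a sex-linked gene score as a covariate and 155 with exact zeros set to missing. Leaving out 1 more array gave between 19 and 173. Of the 293, 175 also passed with normexp and loess, 196 from mean signals and 131 with the series matrix. In the liver channel alone 24 of the 293 passed, and with scan day blocked 2. Replicate 3 at 4 weeks was the only array of its scan day. With scan day blocked it therefore added nothing, and the 48 calls are the same result with and without it.

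For the 5 genes whose change differed from that off c-Myc, the count was 52 with normexp and loess, 38 from mean signals, 0 in the liver channel alone, 77 with the series matrix, 392 with scale normalization, 22 with no filter, 19 with the filter on all 34 arrays, 1 with the mean over probes, 8 with trend and robust eBayes, 2805 with array weights, 86 with only the arrays compared, 23 without the slide with another reference profile, 2 with slide as a random block, 47 with scan day blocked, 8 with the sex-linked score and 11 with exact zeros missing, and between 0 and 58 leaving out 1 array. For the 13 that differed from the change off TGFα, it was 86, 28, 0, 31 and 412 in the same order up to scale normalization, 67 with the filter on all arrays of 1 group, 25 with that on all 34 arrays, 39 with the mean over probes, 33 with trend and robust eBayes, 1389 with array weights, 141 with only the arrays compared, 1 without that slide, 1 with slide as a random block, 124 with scan day blocked, and 57 with exact zeros missing, and between 0 and 125 leaving out 1 array. The other settings kept each count within 1.5 times. Of the 5 genes, 0 also passed with normexp and loess, 3 from mean signals, 2 with the series matrix and 0 with scan day blocked. Of the 13, 8 also passed with normexp and loess, 6 from mean signals, 7 with the series matrix and 13 with scan day blocked.

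The replicate number as a replicate block gave 77 and 222 genes with all arrays and without replicate 3 at 4 weeks, and 2 and 0 for the differences from c-Myc and from TGFα. With the replicate block and only the arrays compared, the counts were 0, 0, 0 and 12. Same-numbered arrays share only a number, as their deviations did not correlate in every pair.

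Over the 55 named results, 861 of 1423 recomputed values kept direction and side of the threshold, 531 kept direction but no longer passed, 11 passed anew and 20 turned direction. Those that turned were Olfr868 (0.0182 with normexp, 0.0804 from mean signals), Tgfa (0.0846 with the mean over probes, 0.17 with array weights, 1.68 with scan day as a block, and between -0.54 and 0.32 leaving out 1 array, 0.32 without replicate 3 at 4 weeks) and, with scan day as a block, B3galt4 (-0.016), Slc7a4 (-0.83), Tmem87a (-1.91) and Ugcg (1.21). Without replicate 3, the liver channel alone gave -1.48 for Grik3, -1.04 for Pvt1, -0.0811 for Rasgef1a and -0.28 for Scrt1, the filter on all arrays of 1 group gave -1.47 for Aldh1l2, and scan day as a block gave -2.77 for Aldh1l2, -0.36 for Arhgef28, -0.65 for Grik3, -0.0173 for Pvt1 and -2.29 for Scrt1.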
